A study of Mus musculus with 12 samples.

Results

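A set of 9 channel genes for the membrane excitability of the pancreatic beta cell was followed through islet RNA of mice with and without the mitochondrial deacetylase gene Sirt3 in their beta cells. The 9 genes are known channels of this cell, and they were chosen with earlier results of these data known. Among them are the ATP-sensitive potassium (KATP) channel genes Kcnj11 and Abcc8 and the calcium channel genes Cacna1a, Cacna1c and Cacna1d. The others are the sodium channel gene Scn9a and the transient receptor potential (TRP) channel genes Trpm5, Trpm4 and Trpc4. Together these members are 9 of 54532 genes listed for each library, and all 9 were among the 16076 genes with enough counts to be tested.

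When glucose is metabolised in a beta cell, ATP closes the KATP channel, the membrane depolarises, and voltage-gated calcium channels open. The calcium that enters triggers the release of insulin granules. Voltage-gated sodium channels carry part of the action potential upstroke in mouse beta cells, and TRP cation channels add depolarising current.

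The islets, freed from male C57BL/6 pancreas by collagenase and cleaned on a density gradient, gave total RNA that was sequenced in 12 libraries, 3 for each of 4 groups. HFD KO islets came from mice with a beta cell selective Sirt3 knockout that received a diet with 60% of calories from fat for 36 weeks, after 6, 5 and 6 weeks of standard food in replicates 1 to 3. HFD WT islets came from wild type mice on the same high fat diet for 36 weeks, after 4 weeks of standard food. STD KO islets came from the knockout mice, and STD WT islets from wild type mice, kept on a standard diet with 6.2% fat. All 12 samples were labelled as 40 weeks old, although the feeding periods add up to 41 or 42 weeks in HFD KO. Genotype and the weeks of earlier standard food therefore differed together in the high fat groups and cannot be told apart. The driver of the knockout and the deleted exons were not given in the sources used here, and cells other than beta cells keep the gene. Whether each library stands for its own animal is not stated in the labels, and the p-values below therefore measure a spread between libraries that may be technical.

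Total counts per library were 16037709 to 20864920, and the insulin genes Ins1 and Ins2 together took 19.7% to 33.5% of them. Sirt3 itself had 7.85, 11.5 and 6.21 CPM (counts scaled to library size) in HFD KO, 11.4, 9.30 and 11.8 CPM in HFD WT, 6.59, 5.97 and 5.86 CPM in STD KO, and 9.04, 11.3 and 11.5 CPM in STD WT. The library labelled HFD KO 2 thus lay inside the WT range, and the members' values under the high fat diet are also given without it. The CPM here and below were scaled for composition by the trimmed mean of M-values (TMM). Markers of beta, alpha, delta, PP, acinar, ductal, endothelial, immune, stromal and neural cells were all detected, and no marker was at 0 in all 12 libraries. In bulk RNA, fewer cells of a type and less RNA per cell cannot be told apart.

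The 9 genes lie on 6 mouse chromosomes in mm10 coordinates. Kcnj11 (7:46093953-46100764) and Abcc8 (7:46104523-46180033) are neighbours on the minus strand of chromosome 7, with 3758 bases between them. Trpm4 (7:45302632-45333780) and Trpm5 (7:143069153-143094642) lie on the same strand of that chromosome, far apart. Cacna1a lies at 8:84388440-84640246 and Trpc4 at 3:54156035-54318471, both on the plus strand. Cacna1c (6:118587240-119196418), Cacna1d (14:30039939-30491455) and Scn9a (2:66480080-66634962) are on the minus strand. Exons of Trpm5 share 220 bases (3.44%) with the gene Tssc4 on the opposite strand, and exons of Cacna1d share 589 bases (4.67%) with Chdh. The strand setting of the counting was not given in the sources used here, so reads from these shared stretches cannot be assigned to either gene.

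RefSeq promoter windows (GRCm38.p6, the assembly that mm10 names), of 250 bases before and 30 bases from a transcript start, were at hand for 5 of the 9 genes. Printed 5′ to 3′ on the strand of the gene are those of Trpm5 and Trpc4, the members with the lowest KO to WT ratios, and of Scn9a, the member with the highest. Capitals mark matches on either strand to any of 5 motifs. These were the STAT-type palindrome written TTCNNNGAA, the homeobox core written TAATTA, the TATA box written TATAAA, the CAAT box written CCAAT, and lastly the GC box written GGGCGG.
Trpm5, chr7:143094613-143094892: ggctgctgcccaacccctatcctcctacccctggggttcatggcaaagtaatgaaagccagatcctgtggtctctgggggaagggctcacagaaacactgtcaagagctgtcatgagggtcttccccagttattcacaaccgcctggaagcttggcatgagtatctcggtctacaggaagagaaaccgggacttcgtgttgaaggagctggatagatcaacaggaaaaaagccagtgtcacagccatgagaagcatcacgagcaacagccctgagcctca
Trpc4, chr3:54155807-54156086: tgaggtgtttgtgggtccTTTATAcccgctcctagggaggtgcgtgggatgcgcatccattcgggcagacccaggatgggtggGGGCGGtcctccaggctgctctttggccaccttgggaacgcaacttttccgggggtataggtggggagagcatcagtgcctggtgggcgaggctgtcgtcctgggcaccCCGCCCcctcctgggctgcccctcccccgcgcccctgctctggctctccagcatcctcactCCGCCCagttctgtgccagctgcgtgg
Scn9a, chr2:66634933-66635212: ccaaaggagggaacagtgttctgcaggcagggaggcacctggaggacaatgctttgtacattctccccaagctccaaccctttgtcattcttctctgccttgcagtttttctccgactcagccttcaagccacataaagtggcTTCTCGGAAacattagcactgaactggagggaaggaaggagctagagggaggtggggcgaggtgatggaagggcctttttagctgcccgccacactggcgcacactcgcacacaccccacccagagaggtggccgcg
The Trpm5 window held none of the 5 motifs. The Trpc4 window held 1 TATAAA and 3 GGGCGG matches, and the Scn9a window held 1 TTCNNNGAA match. Among 32851 RefSeq promoter windows of the same length, 7.83% held TTCNNNGAA, 13.1% TATAAA and 34.7% GGGCGG, so that GGGCGG matches are common and the others less so. The match is a description of letters and not of a bound site.

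Per length, the KATP genes were the most abundant members. The deposited FPKM (reads scaled by gene length and library total) averaged 311 for Abcc8, 141 for Kcnj11 and 55.1 for Trpm5 over the 12 libraries, and no library of one of these genes reached the range of the next. Cacna1a followed at 12.2, Cacna1d at 11, Scn9a at 8.26, Trpm4 at 7.18, Cacna1c at 5.58 and Trpc4 at 2.38 FPKM, each overlapping its neighbour. Of the members below these 3, Scn9a, Cacna1d and Cacna1c had ranks in the KO groups that they did not have in the WT groups. Scn9a had rank 4 in HFD KO (11.1 ± 4.95 FPKM) and rank 5 in STD KO (12.8 ± 4.49), but rank 8 in HFD WT (4.81 ± 1.09) and in STD WT (4.36 ± 0.333; SD, n = 3 each). Cacna1d had rank 6 in both KO groups, 4 in HFD WT and 5 in STD WT, and Cacna1c had rank 8 in both KO groups, 6 in HFD WT and 7 in STD WT. Without the library labelled HFD KO 2 these HFD KO ranks were the same, and Scn9a averaged 13.8 FPKM there.

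**Figure D1:**
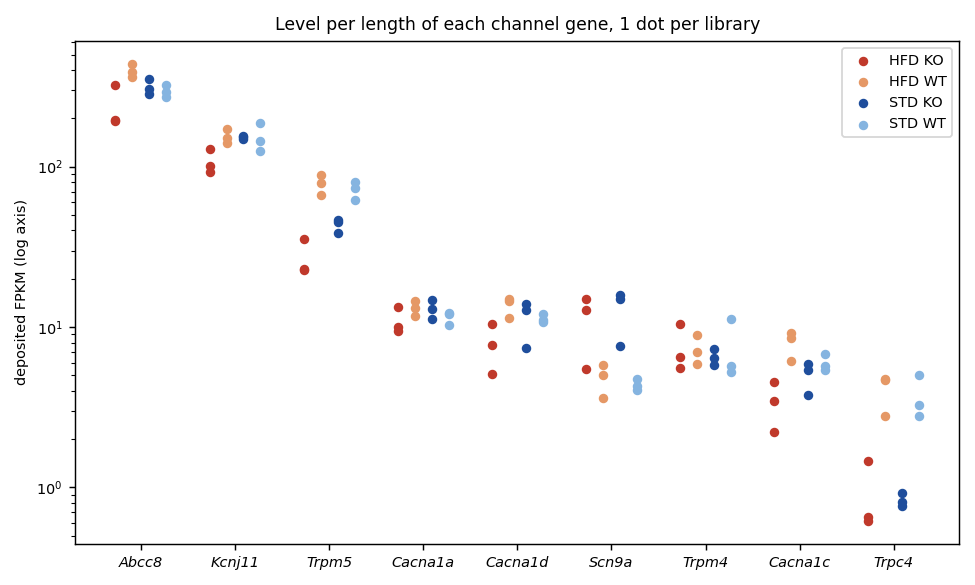
Deposited FPKM of the 9 channel genes (log axis), 1 dot per library, coloured by group (HFD KO, HFD WT, STD KO, STD WT). Abcc8, Kcnj11 and Trpm5 stand apart from each other and from the rest, and the KO libraries of Trpc4, between 0.619 and 1.46 FPKM, lie below its WT libraries.

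These levels depend on the gene length used. For all 9 genes the length behind the deposited FPKM equalled the mean length of the gene's GENCODE M21 transcripts, which was 1.22 to 2.88 times shorter than the longest transcript. Per kilobase of the longest transcript the first 3 places were the same, at 125 for Abcc8, 49.1 for Kcnj11 and 32.4 for Trpm5, while Cacna1a moved from rank 4 to rank 6. The uncorrected genotype comparisons of a single gene are not touched by this choice. Those corrected for gene length, given below, use the same mean transcript lengths and depend on it. For Kcnj11 that length was 1092 bases, against 3142 bases for its longest transcript.

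Knockout and wild type islets were compared first under the high fat diet. In this comparison 4 members fell in HFD KO islets in the quasi-likelihood test of edgeR, adjusted by Benjamini-Hochberg over all genes: Abcc8, Cacna1c, Trpm5 and Trpc4. None rose. Of all genes tested, 7.4% passed the threshold of 0.05 in this comparison, 3.5% as lower and 3.9% as higher. The median log2 fold change was −0.77 over the 9 members and −0.002 over all genes tested, and that of the members was −0.65 without the library labelled HFD KO 2. In 7 members the 3 HFD KO libraries did not overlap the 3 HFD WT libraries, 6 of them lower and Scn9a higher, where 24.5% of all genes tested did not overlap (13.3% lower and 11.2% higher). Because the members were chosen with earlier results of these data known, the values over all genes are a setting. They are no test of the set, here or under the standard diet.

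**Figure D2:**
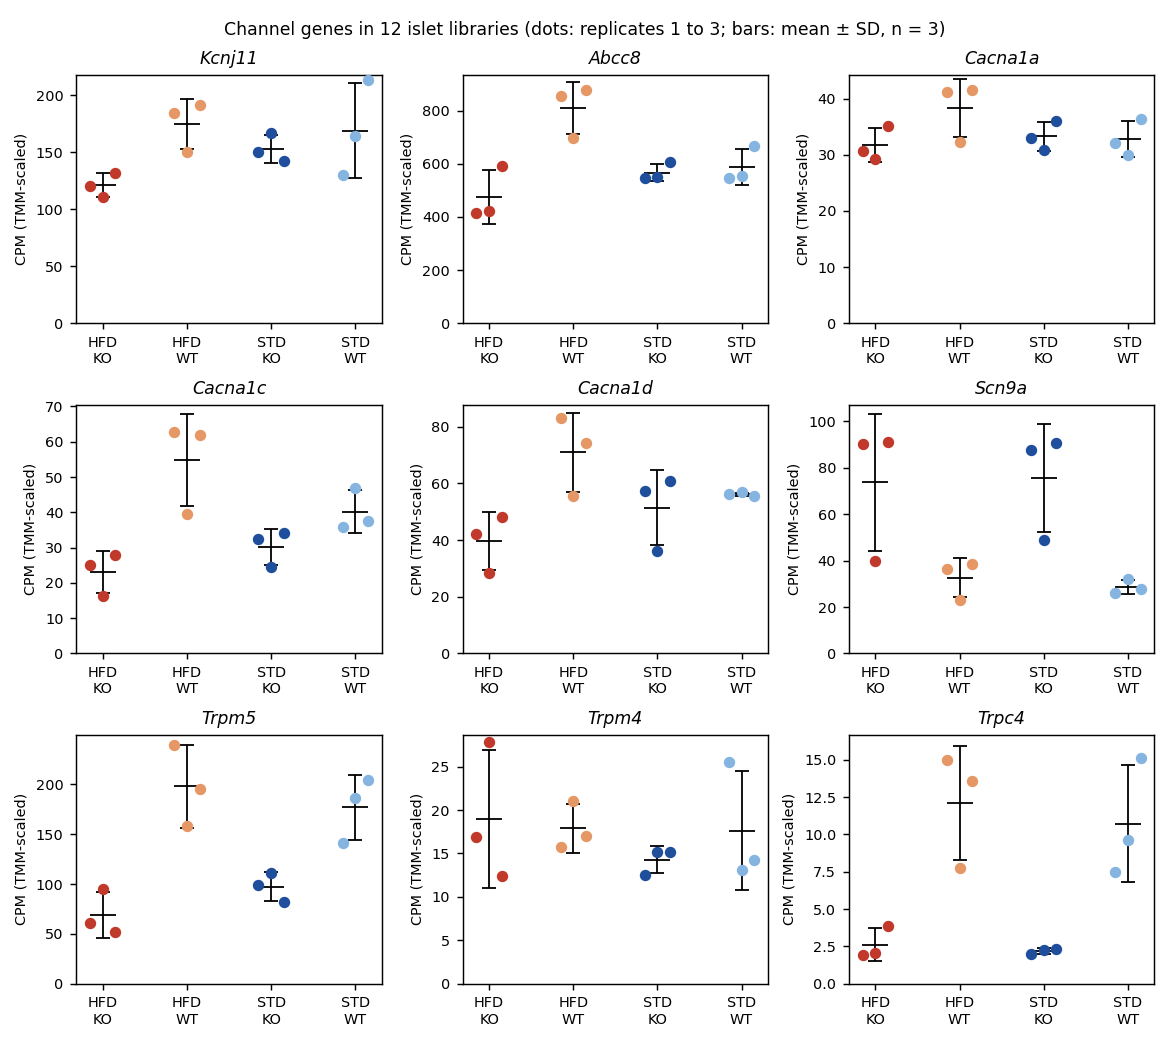
TMM-scaled CPM of each channel gene in the 12 islet libraries, with dots for replicates 1 to 3 from left to right and bars for mean ± SD (n = 3) in HFD KO, HFD WT, STD KO and STD WT. The KO dots of Trpm5 and Trpc4 lie below the WT dots under both diets, and those of Scn9a above them.

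In the high fat groups, libraries with the same replicate number varied together, which was read from these same data and is not in the labels. With the number as a block there 6 members passed instead of 4, with Cacna1d lower and Scn9a higher added. Over all genes tested, 12.2% passed with this block, against 7.4% without it. Longer genes had lower KO to WT ratios under the high fat diet (Spearman's rho −0.307 across genes), with a median log2 fold change of −0.201 in genes of at least 2637 bases, and 8 of the 9 members are longer than the median tested gene of 1799 bases. Values with offsets corrected for gene length are therefore given below beside the uncorrected ones, and 8.37% of all genes passed with them. For the 7 members whose groups did not overlap, leaving out the library labelled HFD KO 2 cannot create an overlap. The non-overlap is therefore no check on that library.

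The pore of the KATP channel is Kir6.2, encoded by Kcnj11, and its sulfonylurea receptor is SUR1, encoded by Abcc8. Abcc8 stood at 413, 422 and 593 CPM in HFD KO, against 855, 698 and 878 CPM in HFD WT. Every HFD KO library was below every HFD WT library, and the log2 fold change was −0.77 (SE 0.18, edgeR adjusted p = 0.0238; −0.71 and adjusted p = 0.0172 with the length correction). The call was lost when HFD WT 1, HFD WT 3, HFD KO 1 or the library labelled HFD KO 2 was left out, with adjusted p between 0.0744 and 0.125. Without the library labelled HFD KO 2 the log2 fold change was −0.69 (edgeR adjusted p = 0.0816). Kcnj11 had 120, 111 and 132 CPM in HFD KO, against 184, 150 and 191 CPM in HFD WT. Its groups did not overlap either, but it did not pass (log2 fold change −0.53, 95% interval −0.92 to −0.15, edgeR adjusted p = 0.0894), except with both the block and the length correction (adjusted p = 0.0242) and with DESeq2 (adjusted p = 0.0485). It was −0.66 (adjusted p = 0.058) with the length correction alone and −0.48 (adjusted p = 0.238) without the library labelled HFD KO 2.

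The ratio of Abcc8 to Kcnj11 in deposited FPKM was 1.91, 2.11 and 2.50 in HFD KO and 2.59, 2.58 and 2.55 in HFD WT. Under the standard diet it overlapped, at 2.02, 1.83 and 2.36 in STD KO and 2.33, 1.89 and 1.74 in STD WT. The HFD WT libraries thus held the 3 highest ratios of the 12. These ratios are not corrected for the length trend of the high fat comparison. With the length correction the log2 fold changes of HFD KO over HFD WT lay close together, at −0.71 for Abcc8 and −0.66 for Kcnj11. Uncorrected they were −0.77 and −0.53, so a change in the balance of the 2 genes is not shown.

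Of the calcium channel pores, Cacna1c (Cav1.2, L-type) fell. It had 25.0, 16.4 and 28 CPM in HFD KO, against 62.8, 39.6 and 61.9 CPM in HFD WT, a log2 fold change of −1.24 (SE 0.24, edgeR adjusted p = 0.00874). It passed in all 12 fits that left out 1 library, and it was −1.05 (adjusted p = 0.0268) without the library labelled HFD KO 2 and −0.91 (adjusted p = 0.00336) with the length correction. Cacna1d (Cav1.3, the other L-type pore of beta cells) had 42.2, 28.3 and 48.2 CPM in HFD KO, against 83.1, 55.6 and 74.2 CPM in HFD WT. Its groups did not overlap and its log2 fold change was −0.84 (95% interval −1.35 to −0.33, edgeR adjusted p = 0.0516). That missed the threshold, while with the replicate block it passed (−0.86, adjusted p = 0.0149), as it did with the length correction (−0.56, adjusted p = 0.0354). It also passed without STD KO 2, HFD WT 2 or HFD KO 3, with adjusted p from 0.0229 to 0.0303. In the other 9 fits that left out 1 library it did not pass, with −0.65 (adjusted p = 0.152) without the library labelled HFD KO 2 and adjusted p of 0.145, 0.155 and 0.144 without HFD WT 1, HFD WT 3 and HFD KO 1. Cacna1a (Cav2.1, P/Q-type) had 30.7, 29.3 and 35.1 CPM in HFD KO, against 41.1, 32.3 and 41.6 CPM in HFD WT, groups that overlapped (log2 fold change −0.27, 95% interval −0.57 to 0.02, edgeR adjusted p = 0.238). It was −0.11 (adjusted p = 0.59) with the length correction and −0.22 (adjusted p = 0.49) without the library labelled HFD KO 2.

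Within the calcium channel alpha-1 family, the pores of voltage-gated calcium channels, the make-up of the summed FPKM also differed. Cacna1c made up 12.3% ± 1.99 in HFD KO and 18.8% ± 2.75 in HFD WT, and Cacna1a 40.2% ± 1.65 in HFD KO and 31.3% ± 1.08 in HFD WT (SD, n = 3 each). The groups did not overlap for either share, and without the library labelled HFD KO 2 the HFD KO means were 13.4% for Cacna1c and 39.2% for Cacna1a. The FPKM ratio of Cacna1c to Cacna1d was 0.446, 0.435 and 0.437 in HFD KO and 0.569, 0.537 and 0.627 in HFD WT. Shares of FPKM carry the length choice described above. The shares and the ratio are also not corrected for the length trend of this comparison. The lengths were 6620 bases for Cacna1c, 4979 for Cacna1d and 2803 for Cacna1a. With the length correction the log2 fold changes were −0.91, −0.56 and −0.11 in that order, against −1.24, −0.84 and −0.27 uncorrected. How much of the shares the trend accounts for was not tested.

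Scn9a, which encodes the sodium channel Nav1.7, was the member that stood higher in knockout islets. It had 90.3, 39.7 and 91.0 CPM in HFD KO, against 36.4, 23.2 and 38.4 CPM in HFD WT. The groups did not overlap, with the library labelled HFD KO 2 only just above the highest HFD WT library, and the log2 fold change of 1.17 (95% interval 0.44 to 1.91) missed the threshold (edgeR adjusted p = 0.0566). It passed with the replicate block (1.11, adjusted p = 0.0128), with the length correction (1.48, adjusted p = 0.00228), without STD KO 2 (1.17, adjusted p = 0.0428) and without the library labelled HFD KO 2 (1.47, adjusted p = 0.0113). In the other 10 fits that left out 1 library it did not pass (largest edgeR adjusted p = 0.206, without HFD KO 1).

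Trpm5 and Trpm4 encode monovalent cation channels that open when internal calcium rises. Trpm5 fell to 60.9, 95.1 and 51.6 CPM in HFD KO, against 240, 158 and 195 CPM in HFD WT. The HFD KO mean was 35.0% of the HFD WT mean, with a log2 fold change of −1.52 (SE 0.25, edgeR adjusted p = 0.0037; −1.36 and adjusted p = 0.0117 with the length correction). It passed in all 12 fits that left out 1 library, and without the library labelled HFD KO 2, the highest of the HFD KO libraries, it was −1.82 (adjusted p = 0.00169). Trpm4 did not pass. It had 16.9, 27.8 and 12.4 CPM in HFD KO, against 15.7, 21 and 17.0 CPM in HFD WT, a log2 fold change of 0.09 whose 95% interval of −0.59 to 0.76 leaves room for changes either way. It was 0.23 (adjusted p = 0.745) with the length correction and −0.29 (adjusted p = 0.642) without the library labelled HFD KO 2. The FPKM ratio of Trpm5 to Trpm4 was 3.55, 3.37 and 4.11 in HFD KO and 15.1, 7.39 and 11.3 in HFD WT.

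Trpc4 encodes a receptor-operated cation channel, and it was the least abundant member. It fell to 1.92, 2.07 and 3.88 CPM in HFD KO, against 15, 7.75 and 13.6 CPM in HFD WT. The log2 fold change was −2.20 (SE 0.36, edgeR adjusted p = 0.00402; −2.05 and adjusted p = 0.00332 with the length correction). It passed in all 12 fits that left out 1 library, and it was −2.05 (adjusted p = 0.0200) without the library labelled HFD KO 2.

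**Figure D3:**
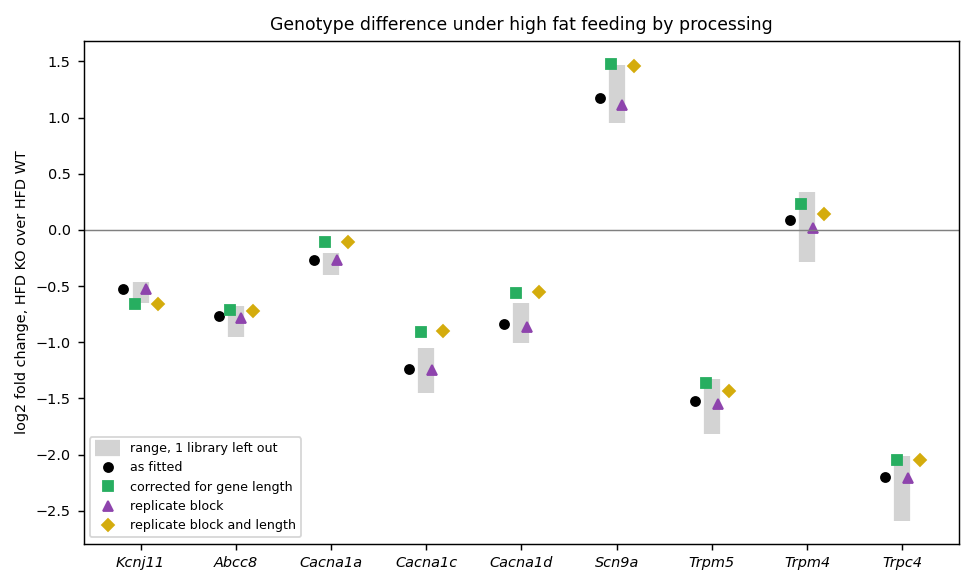
Log2 fold change of HFD KO over HFD WT for each channel gene as fitted, with offsets corrected for gene length, with the replicate block, and with both; the grey bar spans the 12 fits that left out 1 library each. The signs of all members but Trpm4 were the same under each setting drawn, and for Cacna1c the length correction gave −0.91, against −1.24 as fitted.

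Under the standard diet, knockout and wild type islets differed in fewer members. Trpc4 fell in STD KO islets and no other member passed, where 1.71% of all genes tested passed (0.367% as lower and 1.34% as higher). The median log2 fold change was −0.14 over the 9 members and −0.017 over all genes tested. The groups did not overlap in 4 members, against 14.8% of all genes tested (7.32% lower and 7.52% higher): Cacna1c, Trpm5 and Trpc4 were lower and Scn9a higher.

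Trpc4 had 1.96, 2.28 and 2.30 CPM in STD KO, against 7.48, 9.63 and 15.1 CPM in STD WT, with no overlap. This is a log2 fold change of −2.30 (SE 0.37, edgeR adjusted p = 0.00718), and it passed in all 12 fits that left out 1 library. Trpm5 had 99.3, 111 and 81.7 CPM in STD KO, against 141, 186 and 204 CPM in STD WT, groups that did not overlap. Its log2 fold change of −0.86 (95% interval −1.40 to −0.33) did not pass with edgeR (adjusted p = 0.150). Of 20 alternative settings Trpm5 passed in 1, with DESeq2 (adjusted p = 0.0324). It was −0.85 (edgeR adjusted p = 0.222) with the length correction, and its largest edgeR adjusted p was 0.575, without STD KO 3. Scn9a had 87.6, 48.9 and 90.5 CPM in STD KO, against 26.2, 32.0 and 27.8 CPM in STD WT. Its log2 fold change was 1.40 (95% interval 0.66 to 2.14, edgeR adjusted p = 0.0759). It passed with the length correction (1.43, adjusted p = 0.00599), and in the fits without the library labelled HFD KO 2 (adjusted p = 0.0174) or without HFD WT 2 (adjusted p = 0.0497), which enter through the shared estimate of spread. In the other 10 fits that left out 1 library Scn9a did not pass (largest edgeR adjusted p = 0.24, without STD KO 1).

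Nav1.7 was set beside another sodium channel of beta cells, Nav1.3, encoded by Scn3a, which was chosen after its values were seen. The FPKM ratio of Scn9a to Scn3a was 3.75, 3.28 and 3.99 in STD KO and 1.10, 1.08 and 1.26 in STD WT, and 2.10, 2.13 and 2.12 in HFD KO and 1.43, 1.29 and 1.32 in HFD WT. All KO ratios lay above all WT ratios. The library labelled HFD KO 2, with the lowest Scn9a level of the KO libraries, had a ratio of 2.13. Scn3a was low in that library too, with 36.3, 15.7 and 36.3 CPM in HFD KO, against 21.5, 15.1 and 24.5 CPM in HFD WT. Because Scn3a was chosen after its values were seen, the separation of these ratios is no test of the Scn9a difference or of that library.

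The KATP genes did not pass under the standard diet. Kcnj11 had 150, 167 and 142 CPM in STD KO, against 130, 164 and 213 CPM in STD WT (log2 fold change −0.14, 95% interval −0.53 to 0.24). Abcc8 had 546, 551 and 605 CPM in STD KO, against 545, 555 and 667 CPM in STD WT (log2 fold change −0.05). Cacna1c had 32.3, 24.4 and 34.0 CPM in STD KO, against 35.9, 47.0 and 37.5 CPM in STD WT (log2 fold change −0.41, 95% interval −0.92 to 0.10). Cacna1d, Cacna1a and Trpm4 had overlapping groups and log2 fold changes of −0.13, 0.02 and −0.30. The summed level of 6 alpha cell markers did not overlap between STD KO and STD WT islets (17730 to 26125 against 27722 to 35157 CPM), although none of the 6 passed the test, and its part in these results was not tested. The sum of 10 beta cell markers overlapped between genotypes under both diets, at 247073 to 367004 CPM in HFD KO and 277175 to 406618 CPM in HFD WT, and at 188618 to 309587 CPM in STD KO and 252871 to 371134 CPM in STD WT. Ins1 and Ins2, with 19.7% to 33.5% of all counts, made up most of this sum, so it says little about the other markers. Of these 10 markers, 2 fell under the high fat diet and 0 under the standard diet, and their part in the channel results was not tested.

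**Figure D4:**
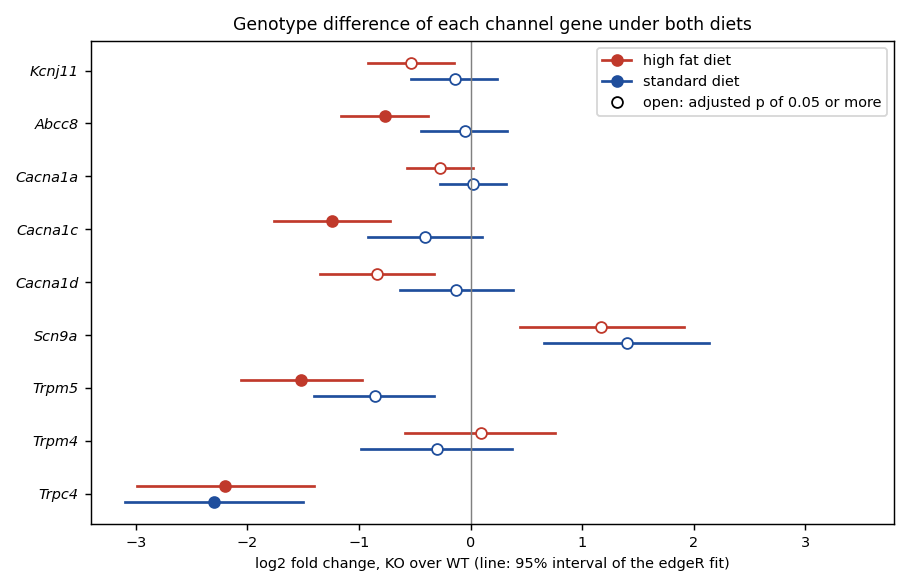
Log2 fold change of KO over WT with its 95% interval in the edgeR fit, for each channel gene under the high fat and the standard diet; filled points passed at an adjusted p under 0.05. Trpc4 passed under both diets, Abcc8, Cacna1c and Trpm5 under the high fat diet, and Scn9a lies to the right of 0 under both.

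High fat feeding itself moved no member past the threshold in either genotype, and neither did the interaction of genotype and diet. In WT islets all 9 log2 fold changes of HFD over STD were positive, between 0.02 and 0.46, with Abcc8 (0.46, 95% interval 0.07 to 0.85) the one member whose groups did not overlap. Among all genes tested 9.59% did not overlap (5.06% higher and 4.53% lower). The edgeR test called 0 of 16076 genes here, and 1 member, Abcc8, had an unadjusted p under 0.05 (0.0240). The alpha cell marker sum did not overlap in this comparison either, at 19649 to 23680 CPM in HFD WT and 27722 to 35157 CPM in STD WT, and its part in these values was not tested. In KO islets the members' log2 fold changes were −0.49 to 0.41 (−0.79 to 0.42 without the library labelled HFD KO 2), and Kcnj11 (−0.34, 95% interval −0.72 to 0.05) was the one member not overlapping, beside 12.1% of all genes (6.23% lower and 5.91% higher). Longer genes had lower HFD to STD ratios in KO islets (Spearman's rho −0.339 across genes). With the length correction the members' values there were −0.44 (Kcnj11) to 0.53 (Trpm4). Both comparisons share their groups with the genotype comparisons above. The interaction, KO over WT under the high fat diet minus that under the standard diet, was −0.71 (95% interval −1.26 to −0.16) for Abcc8 and −0.83 (−1.56 to −0.11) for Cacna1c, with an edgeR adjusted p of 0.621 for each and unadjusted p of 0.0153 and 0.0276. It also fell with gene length (rho −0.275 across genes). With the length correction it was −0.66 for Abcc8, −0.56 for Cacna1c and −0.51 for Trpm5 (edgeR adjusted p = 0.604, 0.604 and 0.716). DESeq2 likewise called none of the 9 members in these 3 comparisons. Passing under one diet alone is therefore not shown to differ between diets for Abcc8, Cacna1c or Trpm5 (interaction −0.65, 95% interval −1.40 to 0.10).

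The genes whose pattern over the 12 libraries lay closest to each changed member were found by the root mean square difference of mean-centred log2 CPM, among 12443 genes. Angel1 (0.08) and Nisch (0.11) were closest to Abcc8, Grk5 (0.12) and Cacna2d1 (0.13) to Cacna1c, Rab37 (0.19) and Nt5dc2 (0.20) to Trpm5, and Jam2 and Sgcz (0.37 each) to Trpc4. Cacna2d1 encodes the calcium channel subunit alpha-2/delta-1, which helps bring the pore to the membrane.

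The remaining channel genes gave the setting for these 9. A list of 149 others in 10 families, also made with earlier results of these data known, held 107 tested genes. Under the high fat diet 6 rose and 8 fell in HFD KO (13.1%, where 7.4% of all genes tested passed), and under the standard diet 6 rose and 1 fell in STD KO (6.54%, where 1.71% of all genes tested passed). Among those that rose under both diets were the inward rectifier gene Kcnj5, the tandem-pore potassium channel genes Kcnk10 and Kcnk9, and the TRP channel gene Trpm1.

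Kcnj5, a subunit of G protein-gated potassium channels, had 640 counts over the HFD KO libraries and 3 over the HFD WT libraries, a scaled ratio of 220 (95% counting interval 75 to 1070). It had 31.8, 21.4 and 24.7 CPM in STD KO, against 0.229, 0.444 and 1.45 CPM in STD WT (log2 fold change 5.20, edgeR adjusted p = 0.000378). Kcnk10, Kcnk9 and Trpm1 had log2 fold changes of 3.78, 2.41 and 4.72 under the high fat diet and 3.27, 2.69 and 4.30 under the standard diet. Kcnk10 passed in all fits that left out 1 library, and Trpm1 in 12 under the high fat but 4 of 12 under the standard diet (largest adjusted p = 0.162, without STD WT 2). Kcnk9 passed in 5 and 7 of 12 (largest adjusted p = 0.113 without HFD WT 1 and 0.121 without STD WT 2).

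The voltage-gated potassium channel gene Kcna2 rose in STD KO (23.3, 19.7 and 33.5 CPM, against 9.91, 9.69 and 8.85 CPM in STD WT; edgeR adjusted p = 0.0346) and passed in 5 of the 12 fits that left out 1 library. Kcnh1 fell in STD KO (3.86, 4.27 and 4.15 CPM, against 14.4, 12.8 and 15.3 CPM in STD WT; edgeR adjusted p = 0.0482) and passed in 4 of 12. The largest adjusted p were 0.143 for Kcna2 without STD WT 2 and 0.191 for Kcnh1 without STD KO 1. Under the high fat diet Kcnj8, the vascular KATP pore Kir6.1, rose (log2 fold change 1.40, edgeR adjusted p = 0.031). It had 6.12, 5.59 and 6.98 CPM in HFD KO, against 1.61, 3.76 and 1.72 CPM in HFD WT, and passed in 8 of the 12 fits (largest adjusted p = 0.141, without HFD WT 3). The other 7 pericyte and smooth muscle markers summed to 123 to 217 CPM in HFD KO and 124 to 190 CPM in HFD WT, ranges that overlapped.

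Those that fell in HFD KO included a calcium channel subunit and several potassium channels. Cacna2d1 had 76.0, 56.8 and 88.8 CPM in HFD KO, against 164, 124 and 171 CPM in HFD WT (log2 fold change −1.05, edgeR adjusted p = 0.00712). Cacna2d1, the calcium-activated channel gene Kcnn2 (−1.67) and the inward rectifier gene Kcnj12 (−1.38) passed in all 12 fits that left out 1 library. Kcnh2 (−0.96), Kcnh8 (−1.25), Kcnk3 (−0.62) and Kcnn1 (−0.92) passed in 10, 8, 8 and 1 of 12. Their largest adjusted p were 0.0619, 0.134 and 0.174 for Kcnh2, Kcnh8 and Kcnn1 without HFD KO 1, and 0.0856 for Kcnk3 without HFD WT 3. Without the library labelled HFD KO 2, 8 of the other channel genes passed in place of 14, and without HFD WT 1, HFD WT 3 or HFD KO 1 the numbers were 8, 8 and 7. Under the standard diet 3 or 4 passed in place of 7 without STD WT 1, STD WT 2, HFD KO 1 or any of the STD KO libraries.

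**Figure D5:**
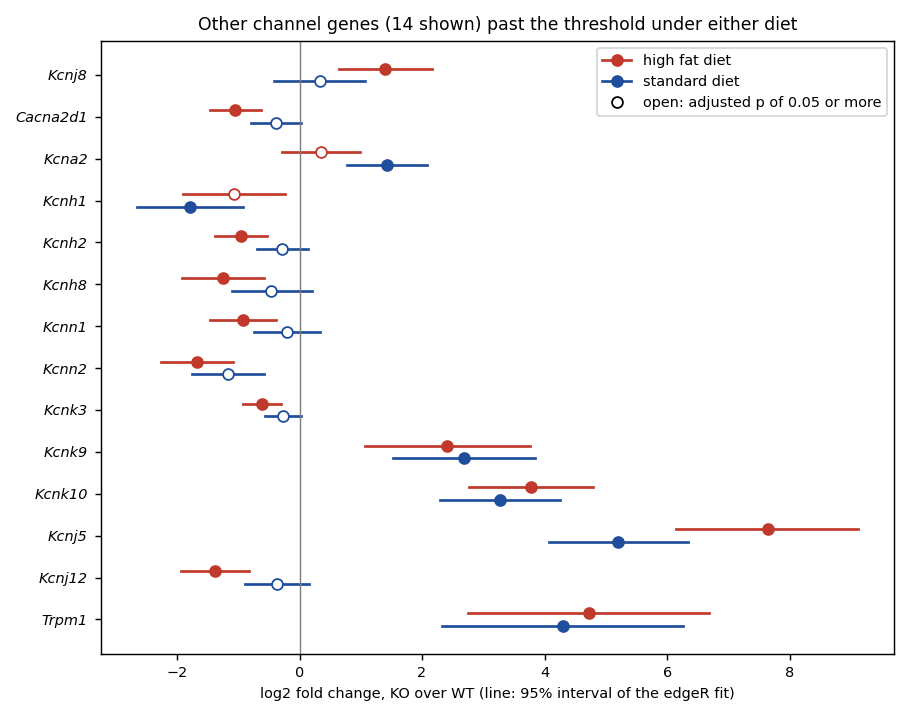
Log2 fold change of KO over WT with its 95% interval in the edgeR fit, for 14 of the other channel genes that passed at an adjusted p under 0.05 (filled) under the high fat or the standard diet. Kcnj5, Kcnk10, Kcnk9 and Trpm1 lie far to the right of 0 under both diets, and their fitted values depend on near-zero WT counts.

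The single most abundant gene among these others did not pass. Kcnk16, the tandem-pore channel TALK-1 of beta cells, had a mean of 228 FPKM over the 12 libraries, between Abcc8 and Kcnj11. It had 325, 263 and 265 CPM in HFD KO, against 409, 376 and 400 CPM in HFD WT, and 274, 328 and 244 CPM in STD KO, against 352, 454 and 512 CPM in STD WT. Neither difference passed although neither pair of groups overlapped (log2 fold changes −0.47 and −0.64, edgeR adjusted p = 0.117 and 0.121). Kcnmb2 (47.3 FPKM), Cacnb3 (31.1), Lrrc8d (26.3), Mcoln1 (25.4), Clcn3 (24.4), Kcnk1 (16.3), Trpm7 (13.6), Kcnma1 (11.5), Nalcn (9.12), Cacna1h (2.03), Abcc9 (1.98), Kcnj6 (1.87) and Cacna1b (1.87) were among the leading genes of their families and passed in neither comparison. Kcnh2 (40.4 FPKM) and Cacna2d1 (32.7), which fell in HFD KO, were leading genes of their families too. High fat feeding moved 1 of the 107 past the threshold, Kcnj12 in KO islets (1.42, 1.04 and 1.55 CPM in HFD KO, against 5.26, 3.53 and 5.86 CPM in STD KO; edgeR adjusted p = 0.032), where 0.0435% of all genes passed (0.0124% as lower). It passed in 2 of the 12 fits that left out 1 library, with adjusted p of up to 0.242 without HFD KO 1.

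Trpm5 also marks tuft cells, a chemosensory epithelial cell type. The other 4 tuft cell markers summed to 12.7 to 24.2 CPM in HFD KO and 3.59 to 10.1 CPM in HFD WT, and to 14.7 to 19.6 CPM in STD KO and 8.68 to 15.6 CPM in STD WT. Dclk1 reached up to 23.3 CPM in a library, whereas Avil, Il25 and Pou2f3 were at most 2.57, 0.505 and 0.195 CPM. Their part in the Trpm5 result was not tested.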

How the data were processed

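Per the labels, islet total RNA was made into Illumina libraries by standard protocols. The authors deposited read counts per Ensembl gene and FPKM values for each library, on mm10. TopHat2, Cufflinks and DESeq are named in the submitters' processing notes. The versions, the annotation, the counting tool and the strand setting were not given in the sources used here. All 257939 nonzero FPKM values deposited equalled count over length and library total (relative tolerance 1e-04), so they add no second measurement. Gene symbols were joined by Ensembl ID (54409 of 54532), and coordinates came from GENCODE M21 (54495).

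Counts were tested in R 4.3.3 with edgeR 4.0.16 (limma 3.58.1). Genes passed filterByExpr (minimum count 10, minimum total 15), libraries were scaled by TMM, and a robust quasi-likelihood model with 1 mean per group was fitted to all 12 libraries. The Benjamini-Hochberg adjustment ran over 16076 genes, with a threshold of 0.05. The biological coefficient of variation was 0.307, and counts of replicates differed by 26.6 to 101 times the Poisson variance, so spread between libraries set the precision. Intervals called counting intervals (95%) cover counting error only. On simulated counts of 15904 genes, 36 of 99 genes changed 2-fold and 71 of 97 changed 4-fold were recovered for KO against WT under the high fat diet, with 2.73% false calls. Under the standard diet 39 of 99 and 76 of 97 were recovered, with 5.74% false calls. The simulated counts were drawn independently, with the same change in both KO groups. They held no length trend, no variation shared by replicate number and no library with a doubtful label. The shares of false calls may therefore not hold for these data.

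Deviations from group means of same-numbered HFD KO and HFD WT libraries correlated at r = 0.515, 0.41 and 0.336, so the numbers were treated as pairs. With 3 libraries per group few matchings are possible, so this check cannot establish pairs. Between HFD KO and STD KO, numbers 2 and 3 also matched their own number best (r = 0.186 and 0.0929). Number 1 there did not (r = −0.114), nor did any number between HFD WT and STD WT. The labels state no shared litter or day, and the pairing comes from this check alone. STD KO and STD WT numbers did not pair (r = −0.00396, −0.175 and −0.234). A fit that blocks on the replicate number within HFD KO and HFD WT was therefore added.

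The channel genes, the family lists and the marker lists were chosen with earlier results of these data known. Text names all 9 members, up to 4 genes per family past the threshold in each comparison, the 2 genes of each family with the highest FPKM, Sirt3, and the 2 genes with the pattern closest to each changed member. Some other channel genes that this rule names are counted but not reported here. Alternatives were DESeq2 1.42.0 (size factors in edgeR, and its Wald test), no filter, offsets corrected for gene length, the replicate block, and leaving out libraries.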

Additional observations from a re-analysis of the deposited data

How the results depend on the processing

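Over 20 settings, 1340 comparisons of single genes gave 1169 with the same direction and side of the threshold, 28 that newly passed, 103 that no longer passed and 40 with another sign. In the members' genotype comparisons (360 in all) these were 315, 28, 5 and 12. The cause of each change was not tested. Pairing by a replicate block within HFD KO and HFD WT gave 6 members in place of 4 under the high fat diet and 2 in place of 1 under the standard diet (Scn9a added). The block over all groups gave 2 members under the standard diet and 0 other channel genes for diet in KO.

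Members called under the standard diet (1) numbered 3 with DESeq2, 2 with the length correction, 2 with block and length, and 1 to 2 with 1 library left out. Under the high fat diet (4) they numbered 7 with DESeq2, 7 with block and length, and 3 to 6 with 1 library left out. Other channel genes called under the standard diet (7) numbered 13 with DESeq2 and 3 to 10 with 1 library left out. Under the high fat diet (14) they numbered 9 without HFD KO 2 and STD WT 3, 22 with block and length, and 7 to 21 with 1 library left out. For diet in KO (1) they numbered 3 with DESeq2, 0 without both libraries, 0 with the block in the high fat groups, and 0 to 2 with 1 library left out. All genes called numbered 484 with DESeq2 and 146 to 296 with 1 library left out under the standard diet (275). Under the high fat diet (1189) they numbered 2033 with DESeq2, 745 without both libraries, 1969 with the block, 1867 with block and length, and 519 to 2899 with 1 library left out. For diet in KO (7) they numbered 140 with DESeq2, 0 with the block over all groups, 2 without both libraries, 12 with block and length, and 0 to 801 with 1 library left out. For diet in WT (0) DESeq2 called 43. For the interaction (0) DESeq2 called 31 and the fit with no filter 1.

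Log2 fold changes that took another sign were all uncalled, here and in the main comparison. For KO over WT under the standard diet, with 1 library left out, the ranges were −0.12 to 0.04 for Abcc8, −0.04 to 0.10 for Cacna1a, −0.27 to 0.07 for Cacna1d, −0.31 to 0.06 for Kcnj11 and −0.48 to 0.05 for Trpm4. Without HFD KO 2 and STD WT 3 they were 0.07 for Abcc8 and 0.09 for Kcnj11. Under the high fat diet Trpm4 was −0.29 to 0.34 with 1 library left out and −0.26 without both. For HFD over STD in WT, with 1 library left out, Kcnj11 was −0.10 to 0.26, Trpc4 −0.03 to 0.50, Trpm5 −0.01 to 0.32 and Trpm4 −0.15 to 0.38. Trpm4 was also −0.13 without both libraries and −0.01 with the length correction, with or without the block. In KO, with the length correction, Cacna1a was 0.05 (0.06 with the block) and Scn9a 0.21 (0.16 with the block). Scn9a was −0.27 to 0.26 with 1 library left out and 0.25 without both, and Trpc4 was −0.10 to 0.46 with 1 library left out. For the interaction Scn9a was 0.05 with the length correction, 0.03 with the block as well, −0.46 to 0.07 with 1 library left out and 0.10 without both. Trpc4 was −0.29 to 0.31 with 1 library left out and −0.08 without both.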
